A study of Mus musculus with 8 samples.

Results

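A set of 313 regions gained acetylation of histone H3 at lysine 27 (H3K27ac) with EGF in 266-6 cells and carried it as well in EGF-treated cells that had received siRNA against Arid1a. The 266-6 line is a mouse pancreatic acinar line. Peaks of the 8 deposited lists were joined wherever they shared 1 bp or more, which gave 33920 merged regions. The list was chosen by the presence of deposited peaks: a region counted as a kept gain where both EGF libraries and both EGF-treated knockdown libraries had a peak in it and neither control library did. The 2 vehicle knockdown libraries were left free. Kept gains were 0.923% of all merged regions and 46.2% of the 678 regions gained with EGF in Arid1a-intact cells, which are themselves 2.00% of all merged regions. The other 365 EGF gains had a peak in 1 or neither of the EGF-treated knockdown libraries.

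H3K27ac marks active promoters and enhancers, and its appearance at a site away from promoters is widely read as the sign of an enhancer coming into use. EGF binds the EGF receptor, a receptor tyrosine kinase whose signal runs through Ras and the ERK kinases to transcription factors of the ETS and AP-1 families. Arid1a is a subunit of the BAF form of the SWI/SNF complex, which moves nucleosomes and is found at many enhancers. Pancreatic acinar cells make digestive enzymes, and signalling through the EGF receptor is known for its part in their change towards a duct-like state.

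All cells were cultured in the same way, transfected with siRNA at 25 nM for 48 h, starved of serum overnight and treated for 8 h. Control cells had a non-targeting siRNA and 0.1% BSA as vehicle, and EGF cells had the same siRNA and EGF at 40 ng/ml. Vehicle knockdown cells had siRNA against Arid1a and BSA, and EGF-treated knockdown cells had that siRNA and EGF. Each group had 2 libraries, and the labels do not call the duplicates separate cultures. P-values therefore weigh only the spread of these samples, and that spread may be technical. The name knockdown follows the labels: Arid1a levels were not analysed here, and a match of the siRNAs to the mouse gene is not stated. The acinar identity of the cells was not checked here, because no annotation of build mm9 was used. For the same reason no region is tied to a gene or an exon and no sequence is shown.

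The lists differed in length, which bears on every count by peak presence. They held 22167 and 28281 peaks in the control libraries, 22361 and 23080 in the EGF libraries, 26844 and 27558 in the vehicle knockdown libraries, and 22030 and 23256 in the EGF-treated knockdown libraries. The first control list is thus as short as those of EGF-treated cells. Read depth is unknown for all libraries, and a region without a peak may still carry acetylation below the caller's limit.

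The second control library set the size of the list. Of regions with a peak in all 4 EGF-treated libraries, 852 stayed out for a peak in the second control library alone and 43 for a peak in the first alone. Those peaks in the second control library had a median score percentile within its list of 25.0 (quartiles 15.0 and 35.9) and a median length of 770 bp. In the first control library the 43 peaks were lower, with a median percentile of 7.67 and a median length of 371 bp. The peaks of kept gains in the EGF libraries were much like the 852, with median percentiles of 24.4 and 27.1 in shorter lists and median lengths of 718 and 760 bp. Without the second control library the rule found 1167 regions. On the EGF side, 97 and 60 regions missed only the first or second EGF library, and 124 and 61 missed only the first or second EGF-treated knockdown library.

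Kept gains were mostly short peaks of low rank in the libraries that held them. Covered length, the number of bases under a peak in the region, had a median of 718 bp (range 200 to 3098) in the first EGF library and 760 bp (200 to 3238) in the second. It was 616 bp (200 to 2782) in the first EGF-treated knockdown library and 754 bp (200 to 2971) in the second. The medians over all regions that these 4 libraries held were 1222, 1245, 1226 and 1248 bp, so the typical kept gain was shorter than the typical acetylated region in all 4. The authors' fold enrichment over the caller's background had medians of 3.93 and 4.07 in the EGF libraries and 3.85 and 3.81 in the EGF-treated knockdown libraries, against 4.67, 4.85, 5.02 and 4.76 over all regions held. Score percentiles within each list had medians of 24.4, 27.1, 19.7 and 24.2 in the same order of libraries. Peaks above the 50th percentile of their list were found at 33, 40, 13 and 23 of the 313 regions. All of these values come from peaks that the rule required, so they describe the list and test nothing.

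**Figure D1:**
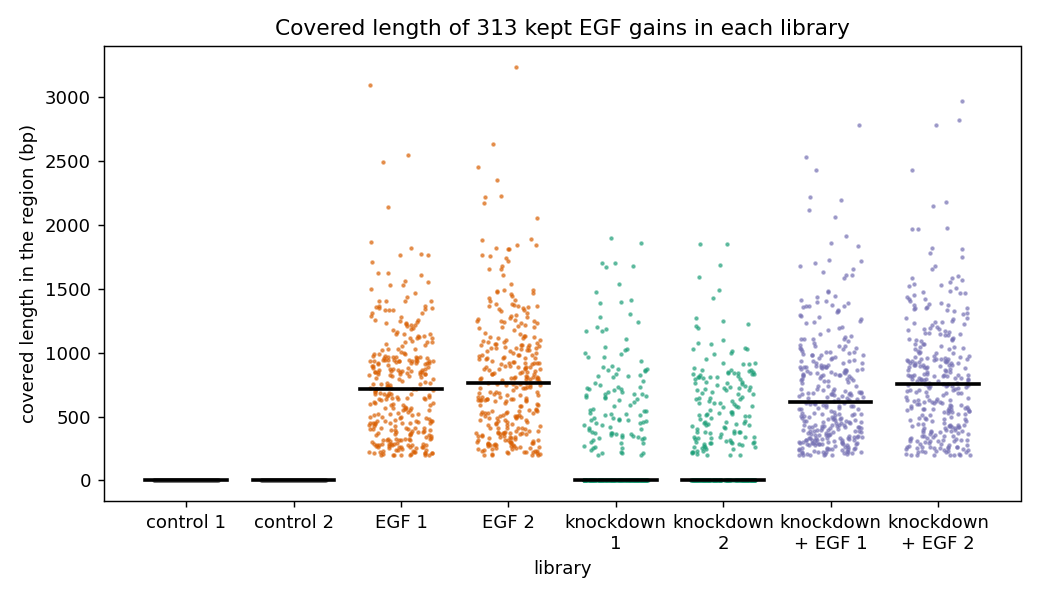
Covered length in bp (y axis) of the 313 kept gains in each of the 8 libraries (x axis), 1 point per region, with the median over all 313 as a black bar. Control libraries are at 0 by the rule, EGF-treated libraries have medians of 616 to 760 bp, and the vehicle knockdown libraries spread from 0 to 1894 bp with a median of 0.

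The 10 regions ranked first were 1109 to 2351 bp wide. Rank was set by the lowest score percentile among the 4 EGF-treated libraries. In the first, chr11:101645191-101646591 (mm9), covered length was 1401 and 1371 bp with EGF and 1391 and 1352 bp with EGF and knockdown. Its percentiles were 86.6 and 76.8 in the EGF libraries and 64.5 and 71.0 in the EGF-treated knockdown libraries, and no vehicle library of either kind had a peak. The 2 groups overlapped in length, and a stretch of 1352 bp was common to all 4 libraries.

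The second, chr15:64729153-64731019, was covered over 1706 and 1841 bp with EGF and 1477 and 1326 bp with EGF and knockdown, again with no vehicle peak. Both knockdown values lay below both EGF values here, and the percentile was lower too, at 53.9 and 60.6 against 81.9 and 79.4. The third, chr1:195269758-195271974, went the other way, with 1772 and 1658 bp with EGF and 2217 and 1819 bp with EGF and knockdown. It had a peak of 291 bp in the second vehicle knockdown library and none in the first.

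Of ranks 4 to 10, those on chromosomes 18, 6 and 10 had no vehicle peak, as had the first and second. The region chr18:38760365-38762041 was covered over 1562 and 1677 bp with EGF and 1241 and 1522 bp with EGF and knockdown. At chr6:6108621-6110598 the lengths were 1219 and 1249 bp, and 1036 and 1978 bp. At chr10:9222456-9224593 they were 2138 and 1842 bp, and 1658 and 1655 bp. Knockdown values were lower in both libraries on chromosomes 18 and 10 and overlapped the EGF values on chromosome 6.

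The remaining 4 of these ranks each had a peak in the second vehicle knockdown library alone. It covered 877 bp at chr8:10945752-10947168, which had 1368 and 1203 bp with EGF and 918 and 1347 bp with EGF and knockdown. It covered 714 bp at chr3:101303231-101305581, which had 1403 and 2351 bp with EGF and 1407 and 1528 bp with EGF and knockdown. At chr1:52090719-52092867 it covered 481 bp beside 1623 and 1714 bp with EGF and 1914 and 2149 bp with EGF and knockdown. At chr3:68312440-68313548 it covered 221 bp beside 718 and 1059 bp, and 886 and 901 bp. In all 4 regions the vehicle knockdown peak was shorter than each of the 4 EGF-treated ones, and its percentile was 22.2 or less.

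**Figure D2:**
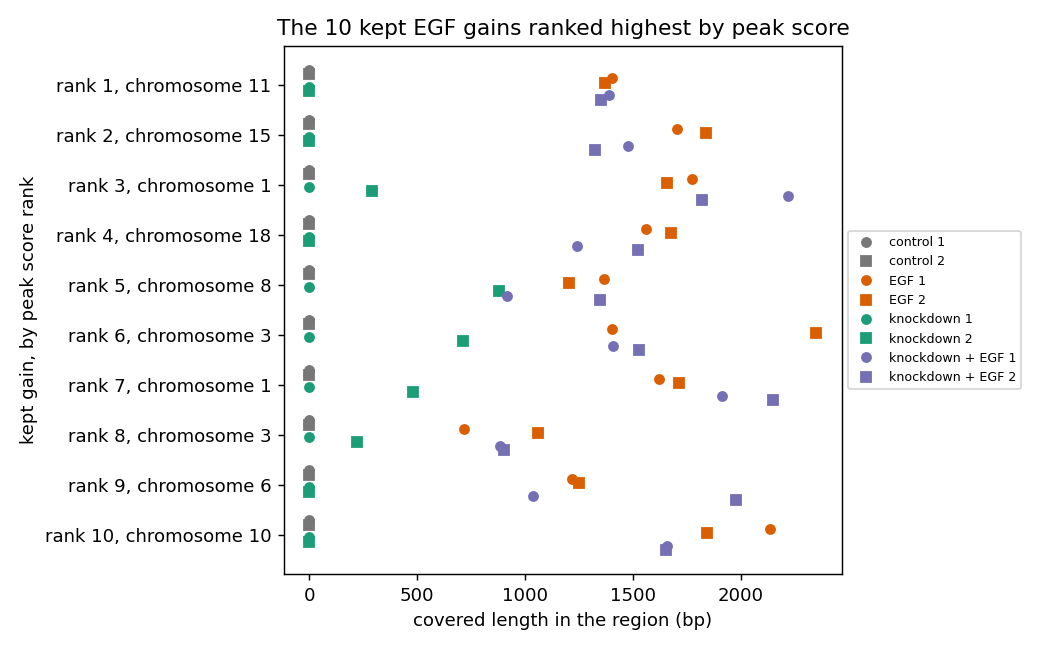
Covered length in bp (x axis) of the 10 kept gains ranked highest by peak score (y axis), 1 symbol per library, circles for replicate 1 and squares for replicate 2. Control libraries are at 0 by the rule, and the vehicle knockdown libraries reach at most 877 bp, all from the second library.

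Vehicle knockdown libraries, which the rule did not use, split the list. Neither had a peak at 137 of the 313 regions (43.8%), 1 of them had a peak at 86 (27.5%), and both had one at 90 (28.8%). Of the 86, 27 had it in the first library and 59 in the second. So at 56.2% of these regions a peak absent from both control libraries was also found in at least 1 library of knockdown cells that had no EGF. Among all 6042 merged regions without a control peak, 17.1% had a peak in both vehicle knockdown libraries and 28.3% in neither. The other 54.6% had a peak in 1 of them. Many regions of that background were held by a single library, which favours a peak in 1 library alone. Of the 365 EGF gains that were not kept, 9.32% had a peak in both vehicle knockdown libraries and 75.6% in neither. A further 342 regions without a control peak were held by both EGF-treated knockdown libraries but not by both EGF libraries. Of these 45.0% had a peak in both vehicle knockdown libraries, 28.9% in 1 and 26.0% in neither. Kept gains thus had a larger share with both peaks than the EGF gains not kept and a smaller one than these 342 regions. Kept gains and the 342 regions had to hold peaks in both EGF-treated knockdown libraries, which share the siRNA with the vehicle knockdown libraries. EGF gains not kept had shorter peaks in the EGF libraries, with median lengths of 531 and 616 bp against 718 and 760 bp for kept gains. The shares were not adjusted for these differences. Of all 19691 regions held by both EGF-treated knockdown libraries, 95.5% had a peak in both vehicle knockdown libraries. No test was made of these shares. Regions are not replicates of a condition, and a rank test of 2 against 2 libraries cannot give a two-sided p under 0.333.

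The share depended on which lists were compared. Vehicle knockdown lists were longer than those of EGF-treated cells, and with lists of equal length the rule found 586 regions, of which 52.4% had no vehicle knockdown peak. Without the second control library 17.1% of the 1167 regions had none. With only the second or only the first vehicle knockdown library kept, 52.5% and 62.4% had no peak in it. Excluding the first EGF-treated knockdown library gave 435 regions and 51.3%.

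**Figure D3:**
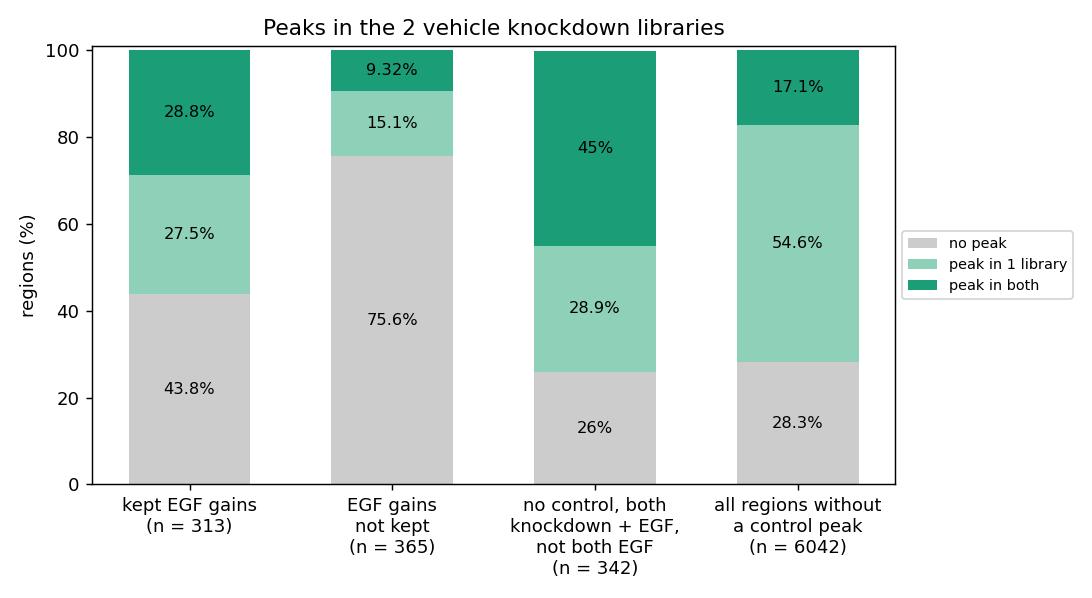
Share of regions in percent (y axis) with no peak, a peak in 1 and a peak in both vehicle knockdown libraries, for kept EGF gains, EGF gains not kept, regions without a control peak held by both EGF-treated knockdown libraries but not both EGF libraries, and all merged regions without a control peak (x axis). The share with a peak in both libraries is 28.8%, 9.32%, 45.0% and 17.1% in that order.

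At the 90 regions with a peak in both vehicle knockdown libraries, knockdown cells had peaks of much the same median length with and without EGF. The mean covered length of the EGF-treated pair was a median 0.988 times that of the vehicle pair (range 0.385 to 3.78), and it was above 1 at 44 of the 90. Both EGF-treated libraries were longer than both vehicle libraries at 22 regions and shorter at 16, and the groups overlapped at 52. Over all 18809 regions held by these 4 libraries, 6.62% were longer in both and 55.5% shorter in both. The rule drew on the EGF-treated libraries of this contrast, so the counts are given without a test. At the 137 regions without a vehicle knockdown peak, the log2 difference of EGF-treated and vehicle knockdown cells had a median of 2.00 on the scale of log2(covered bp + 200), a value that peak presence alone forces above 0.

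The 5 regions with the largest mean length in vehicle knockdown cells had 1017 to 1859 bp in each of those libraries. The first, chr15:81727968-81729995, was covered over 1705 and 1683 bp in vehicle knockdown cells, 220 and 791 bp in EGF cells and 1835 and 682 bp in EGF-treated knockdown cells. The next, chr11:62437348-62439485, had 1859 and 1492 bp in vehicle knockdown cells, 1284 and 551 bp in EGF cells and 787 and 1185 bp in EGF-treated knockdown cells. In both regions the vehicle knockdown libraries were longer than both EGF libraries, while control cells had no peak.

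At chr11:60748606-60750454 the lengths were 1025 and 1849 bp in vehicle knockdown cells, 374 and 380 bp in EGF cells and 1677 and 950 bp in EGF-treated knockdown cells. Both knockdown groups exceeded the EGF group there without overlap. At chr1:138876104-138877951 vehicle knockdown cells had 1017 and 1848 bp, EGF cells 1369 and 1060 bp and EGF-treated knockdown cells 1133 and 1453 bp. At chr1:141090340-141091975 the values were 1534 and 1096 bp, 919 and 510 bp, and 680 and 1417 bp. The 3 groups overlapped in the first of these, and vehicle knockdown exceeded EGF in the second. Score percentiles at these 5 regions were low in every library, from 1.65 to 46.1.

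Peak ranks under EGF were also set out by the number of vehicle knockdown peaks. In the EGF-treated knockdown libraries, median percentiles were 15.5 and 21.0 at regions with no vehicle knockdown peak, 20.5 and 23.9 with 1, and 24.4 and 29.6 with 2. In the EGF libraries they were 26.9 and 30.5 with none, 22.9 and 21.7 with 1, and 21.0 and 27.2 with 2. The knockdown libraries thus rose over the 3 subsets, the first EGF library fell, and the second EGF library was lowest in the middle.

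Median covered length in the EGF libraries was 817 and 833 bp with no vehicle knockdown peak, 729.5 and 662 bp with 1, and 595 and 645.5 bp with 2. In the EGF-treated knockdown libraries it was 616 and 724 bp, 612 and 796.5 bp, and 627.5 and 757.5 bp, with no common order. Region width had medians of 1112, 1162.5 and 1135 bp for 0, 1 and 2 vehicle knockdown peaks. Differences between these subsets were not tested.

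**Figure D4:**
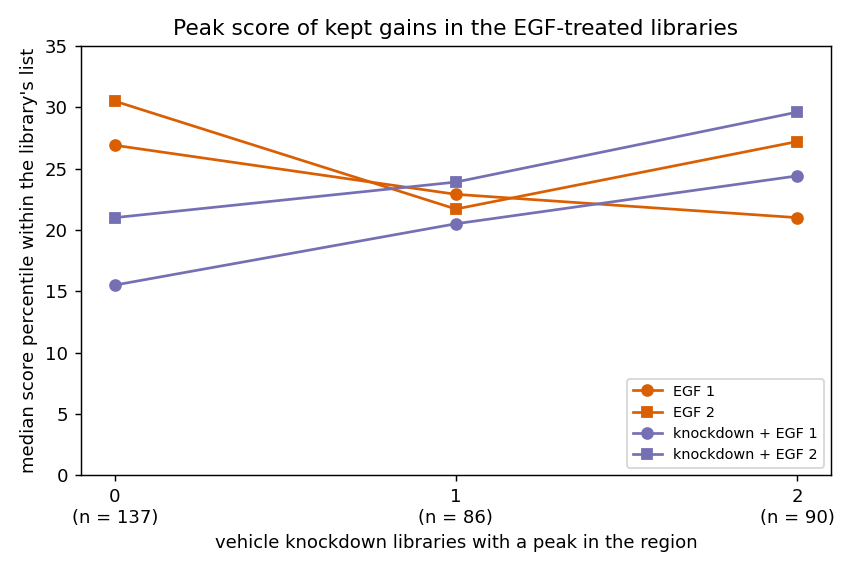
Median score percentile within each EGF-treated library's list (y axis) of kept gains by the number of vehicle knockdown libraries with a peak in the region (x axis), 1 line per library. Both knockdown lines rise, from 15.5 to 24.4 and from 21.0 to 29.6, the first EGF library falls from 26.9 to 21.0, and the second goes from 30.5 through 21.7 to 27.2.

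The comparison of EGF-treated knockdown cells with EGF cells asks whether covered length at kept gains differed with knockdown. The rule required a peak on both sides, so it left the direction free but narrowed the differences that could occur. Fitted with limma over 28146 regions, 0 of 313 kept gains were called at an adjusted p under 0.05 (smallest adjusted p = 0.121), where 0.661% of all regions tested were called, 0.234% higher and 0.426% lower. Many of those regions lacked a peak on one side, which the rule does not allow for kept gains, so that share is no fair background. Of the 17935 regions held by all 4 EGF-treated libraries, limma called 0.234%. At an unadjusted p under 0.05, limma gave 7 kept gains higher and 12 lower, or 6.07% of them, against 8.57% of these 17935 and 10.8% of all regions tested. The fit also draws its spread from control libraries that the rule sets to 0 at kept gains. Fitted on the 4 EGF-treated libraries alone, limma again called 0 kept gains (smallest adjusted p = 0.102). It then gave 32 at an unadjusted p under 0.05 (10.2%), against 11.2% of the 17935 regions. Other settings gave 9 and 28 kept gains at an unadjusted p under 0.05 with pseudocounts of 50 and 1000 bp and 7 with quantile normalization. A share near or below the background says nothing particular about kept gains. The median log2 difference, knockdown with EGF minus EGF, was -0.02 (quartiles -0.30 and 0.27), with 152 regions above 0 and 161 below, and over all regions tested it was 0. It was -0.12 for the 137 regions without a vehicle knockdown peak, of which 87 lay below 0. It was 0.12 for the 90 with both, of which 59 lay above 0. Over all regions tested 13511 lay above 0 and 12008 below. The split uses vehicle knockdown libraries, which share the siRNA with 1 side of this comparison, so it may itself tilt the signs. It was not made over all regions, and the difference between subsets was not tested.

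A missed threshold does not show that lengths were alike. The median standard error of a kept gain was 0.42 on this log2 scale, and 0.31 over all regions tested. Replicates of the same group differed by a median of 0.275 (EGF) and 0.316 (EGF-treated knockdown) in log2(covered bp + 200) at kept gains, against 0.151 and 0.156 over the 17935 regions held by these 4 libraries. The 186 calls over all regions were themselves unsteady. They became 495 when the first control library was left out and 630 when the second was. They became 4 with the second EGF-treated knockdown library left out, and 0 with any other single library left out. None of these fits called a kept gain. With lists of equal length limma called 2 kept gains higher, at regions whose EGF peaks the shortened lists no longer held.

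In terms of plain order, both EGF-treated knockdown libraries were longer than both EGF libraries at 51 kept gains (16.3%) and shorter at 73 (23.3%), with overlap at 189. Over the 17935 regions the shares were 25.9% longer and 19.3% shorter. The ratio of mean lengths, knockdown with EGF over EGF, ran from 0.215 to 3.48 among kept gains with a median of 0.981 (quartiles 0.759 and 1.27). Over the 17935 regions it ran from 0.137 to 9.04 with a median of 1.02 (quartiles 0.903 and 1.17).

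**Figure D5:**
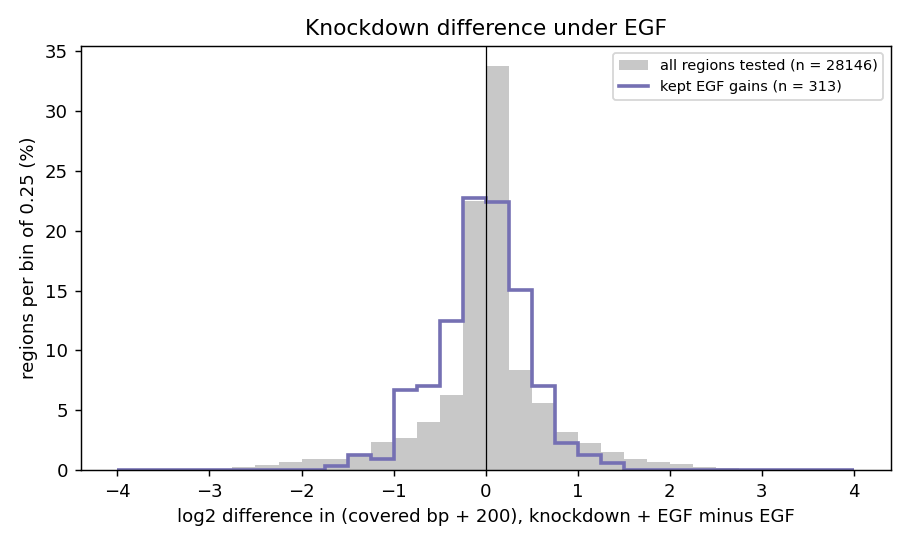
Share of regions in percent (y axis) by log2 difference in covered length, knockdown with EGF minus EGF (x axis, bins of 0.25), for all 28146 regions tested (grey) and the 313 kept gains (line). Kept gains centre near 0 (median -0.02), and regions without a peak in any EGF-treated library sit at exactly 0 and are part of the grey bar just right of 0.

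The 4 kept gains with the smallest limma p, picked after the values were seen, were all shorter with knockdown. The region chr4:61511960-61513061 had 845 and 1102 bp with EGF and 218 and 200 bp with EGF and knockdown, a log2 difference of -1.51 ± 0.31 (SE, limma adjusted p = 0.121). At chr13:51580467-51581578 the lengths were 1082 and 920 bp against 250 and 346 bp (log2 difference -1.27 ± 0.32 SE, limma adjusted p = 0.178). At chr9:45303992-45305544 they were 1553 and 1367 bp against 593 and 366 bp (-1.31 ± 0.34 SE, limma adjusted p = 0.193).

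In chr5:54320293-54321138 the lengths were 846 and 833 bp against 301 and 265 bp (-1.11 ± 0.30 SE, limma adjusted p = 0.215). The groups did not overlap in any of the 4. None had a vehicle peak, which lowers the standard error in this fit and so favours such regions among the smallest p. Percentiles did not follow length at the first, where they were 1.99 and 23.2 with EGF and 18.3 and 34.3 with EGF and knockdown. They also overlapped between the groups at the chromosome 13 region (30.2 and 38.5 against 31.1 and 30.0). The same held at the chromosome 9 region (6.45 and 35.8 against 3.14 and 12.9). Only at the chromosome 5 region were both knockdown percentiles below both EGF ones (33.6 and 56.9 against 13.5 and 25.8). The largest rise was at the chromosome 11 region starting at 60748606, with a log2 difference of 1.35 ± 0.39 (SE, limma adjusted p = 0.243).

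Peaks of the 4 EGF-treated libraries overlapped in part. At 299 of the 313 regions at least 1 base was under a peak in all 4, and 14 regions had none and were joined through overlaps of neighbouring peaks. The shared stretch had a median of 284 bp (quartiles 193 and 624) and took up a median of 30.9% of the region. The Jaccard index, shared over total covered bases, had a median per region of 0.695 between the EGF libraries and 0.649 between the EGF-treated knockdown libraries. Between the 2 groups the 4 pairs of libraries gave medians of 0.581 to 0.651. The midpoints of peaks were a median of 86.5 and 107.5 bp apart within these groups and 97.5 to 114.5 bp apart between them.

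Vehicle knockdown peaks in the same regions fitted the EGF peaks less closely. Their median Jaccard index with the 4 EGF-treated libraries was 0.424 to 0.539, over 117 regions for the first library and 149 for the second. Between the 2 vehicle knockdown libraries it was 0.590 over 90 regions. Midpoints lay a median of 122.5 to 159.5 bp from those of EGF-treated libraries. The peaks were also weak, with a median fold enrichment of 3.51 and 3.43 against 4.80 and 4.74 over all regions those libraries held, and 2 and 4 of them lay above the 50th percentile. These indices rest on different regions for each pair of libraries and were not tested against each other.

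Kept gains were of intermediate width. Merged regions had a median of 1139 bp (313 to 3243), against 862 bp for EGF gains that were not kept and 1415 bp for all merged regions. Among the 6042 merged regions without a control peak they were wide, as the median there was 542 bp and 1.01% were 2000 bp or wider. The requirement of 4 peaks favours wider regions, so this is a property of the rule as well. Of the 313, 22 (7.03%) were 2000 bp or wider, against 31.8% of all merged regions, and 16 were under 500 bp. EGF gains that were not kept also had shorter peaks in the EGF libraries themselves, with median lengths of 531 and 616 bp and median percentiles of 13.9 and 17.0, against 718 and 760 bp and 24.4 and 27.1 for kept ones.

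The widest kept gain, chr1:194299592-194302834, was covered over 3098 and 3238 bp with EGF and 2782 and 2818 bp with EGF and knockdown, with a peak of 487 bp in the second vehicle knockdown library. At chr1:126215732-126218969 the lengths were 1433 and 2172 bp with EGF, 1293 and 2783 bp with EGF and knockdown, and 1283 and 797 bp in vehicle knockdown cells. These regions differ in that the first is long in all 4 EGF-treated libraries and the second in the second library of each EGF-treated group. At chr6:142486781-142489879 the split was the same as in the second, with 1310 and 2634 bp, and 1260 and 2971 bp, and no vehicle peak. At chr16:21606256-21608835 the lengths were 2495 and 2223 bp with EGF and 2528 and 1814 bp with EGF and knockdown. At chrX:139010444-139012990 they were 2547 and 2450 bp, and 2427 and 2428 bp. Both of the last regions had a peak in the first vehicle knockdown library alone, of 656 and 586 bp.

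At the lower edge of the rule stood regions with a peak near the end of a list. The kept gain with the lowest percentile, chr19:53502087-53502825, was covered over 564 and 642 bp with EGF and 644 and 233 bp with EGF and knockdown. Its percentile was 0.103 in the first EGF library and 0.0908 in the first EGF-treated knockdown library. Next came chr6:137419298-137420392, with percentiles of 0.0984 and 0.26 in the EGF libraries and a peak of 710 bp in the second vehicle knockdown library, and chr1:134487102-134487681, with percentiles of 0.197 and 4.32.

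Most kept gains stood alone among kept gains but not among acetylated regions. The nearest region held by all 8 libraries was a median of 18.05 kb away (quartiles 7.38 and 55.58), close to the 17.81 kb of all merged regions. Within 5 kb of such a region lay 18.5% of kept gains and 22.1% of all merged regions, and 14.1% and 13.3% lay beyond 100 kb. Merged regions without a control peak lay nearer, at a median of 14.66 kb, with 26.6% within 5 kb and 12.0% beyond 100 kb. EGF gains that were not kept were at a median of 30.61 kb. Another kept gain lay within 50 kb of 32 kept gains (10.2%). A kept gain was that near to 6.58% of the EGF gains not kept and 3.17% of all merged regions.

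Those 32 regions formed 11 pairs and 3 longer stretches. The stretch with the most members, chr19:53478108-53522572, ran over 44.5 kb and held 4 kept gains among 6 merged regions, 1 of which was held by all 8 libraries. Lengths there were 831 and 1284 bp with EGF and 487 and 922 bp with EGF and knockdown at the member starting at 53478108, and 957 and 1067 bp, and 1106 and 334 bp, at the one starting at 53521019. The member starting at 53484381 was the exception in having peaks in both vehicle knockdown libraries, of 477 and 707 bp, beside 466 and 959 bp with EGF and 606 and 610 bp with EGF and knockdown. The other member is the region of lowest percentile above.

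On chromosome 3 a stretch of 24.5 kb, chr3:54869544-54894027, held 3 kept gains and no other merged region, and no vehicle library had a peak in it. Its members were covered over 1146 and 1256 bp, 1349 and 1457 bp, and 332 and 1269 bp with EGF. With EGF and knockdown they were covered over 238 and 1102 bp, 284 and 1043 bp, and 241 and 249 bp. All 6 knockdown values lay below both EGF values of the same region. The log2 differences of -0.89 ± 0.55, -1.05 ± 0.50 and -0.99 ± 0.52 (SE) did not pass the limma test (adjusted p = 0.725, 0.571 and 0.631).

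On chromosome 6 a stretch of 41.0 kb, chr6:142475948-142516950, held 3 kept gains among 5 merged regions, 1 of them held by all 8 libraries. Its members at 142475948 and 142515520 had 851 and 816 bp, and 1401 and 997 bp, with EGF. With EGF and knockdown the lengths were 337 and 1239 bp, and 680 and 1270 bp. The groups overlapped at both, and the third member is the wide region above. None of the 3 had a vehicle knockdown peak.

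Kept gains were spread over all 19 numbered chromosomes and X. Per 100 merged regions they were most frequent on chromosome 15 with 1.43 (23 regions), chromosome 6 with 1.41 (29) and chromosome 14 with 1.34 (16), and least frequent on chromosome 12 with 0.23 (3) and chromosome 11 with 0.413 (11). The share of EGF gains that were kept ran from 18.8% of 16 on chromosome 12 to 77.8% of 9 on X. The small numbers leave these shares imprecise, and they were not tested.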

How the data were processed

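The authors deposited 1 H3K27ac peak list per library, with 9 columns and no header, so peaks were called per sample. The submitters' processing notes name build mm9 and, with no role or order, MACS2 2.1.1.20160309.0, Bowtie2 2.3.4.2, deepTools 3.0.2 and SAMtools. The caller settings and any input library were not given in the sources used here. Each deposited score equals 10 times the deposited −log10 q-value, cut to a whole number. The lowest −log10 q-value of a list ran from 1.0 to 1.05, so weak peaks also count as present. The authors' fold enrichment is a ratio to the background of the caller. These values are the authors' own and served to rank peaks within a list.

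Members and lists were chosen with earlier results of these data known. Peaks overlapping by at least 1 bp were merged, and covered length is the sum of peak lengths in a region. Limma 3.58.1 (empirical Bayes with a trend, R 4.3.3) was fitted on log2(covered bp + 200) over the 28146 regions held by at least 2 libraries, with a mean per group over all 8 libraries and Benjamini-Hochberg adjustment over all regions. Contrasts whose values the rule fixed were not tested. Regions named by rule are the 10 ranked first by lowest percentile, the 5 widest, the 5 with most cover in vehicle knockdown cells, every stretch of at least 3 members within 50 kb of the next, and the 3 of lowest percentile. The 4 with the smallest limma p and those called with lists of equal length were picked after their values were seen. A percentile is the rank of a region's best peak by −log10 q within its list. Interval steps and limma were tested on simulated data. Other steps ran in Python 3.11.15 with NumPy 2.4.6, pandas 2.3.3, matplotlib 3.10.9 and SciPy 1.17.1. The alternatives were stricter scores, equal list lengths, other rules for merging and overlap, bins of 1000 bp, other filters and pseudocounts, quantile normalization, a replicate block, the 4 EGF-treated libraries alone and leaving out each library. Gene lists, motifs and distances to start sites were not analysed here.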

Additional observations from a re-analysis of the deposited data

How the results depend on the processing

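The number of kept gains was 157 with only peaks above the pooled median score, 586 with lists of equal length and 765 with 1000 bp bins, and 314 to 1167 when a library was left out, highest without the second control library. Leaving out a library the rule uses drops 1 of its requirements, and the remaining peaks were merged anew, which can also change the regions. Merging within 500 bp gave 310, and counting only libraries whose peaks cover at least 50% of a region gave 393. The 50% limit held for control libraries as well, so regions with a shorter control peak could enter. Requiring a base shared by all 4 EGF-treated libraries, an alternative chosen after seeing the data, gave 299. The share without a vehicle knockdown peak was 52.4% with lists of equal length, 35.7% with 1000 bp bins and 17.1% to 62.4% with a library left out. Limma called 0 kept gains for knockdown under EGF in all settings except lists of equal length, where it called 2 as higher, with 28 at an unadjusted p under 0.05. They were picked out after their values were seen: chr7:106555700-106556582 and chr7:148529416-148530126, at log2 differences of 1.54 and 2.01 against -0.38 and 0.41 in the full lists. Their EGF peaks fell below the length limit, so cover with EGF became 0. Calls over all regions tested, 186 in the main setting, were 508 and 0 with pseudocounts of 50 and 1000 bp, 98 over regions held by at least 1 library, 486 with lists of equal length, 0 with the 4 EGF-treated libraries alone and 0 to 630 with a library left out. Same-numbered libraries did not deviate together in covered length (correlations of deviations -0.00929 to 0.0317), which cannot show whether they shared a culture or batch. With the replicate block 0 regions were called (3187 at an unadjusted p under 0.05 with limma). Read depth is unknown, and its effect on peak presence was not tested.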
